A study of Mus musculus with 4 samples.

Results

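Blood vessels, lymphatic vessels and the pericytes around them are built and kept by a shared set of genes. A list of 50 such endothelial and angiogenesis genes was followed here in RNA from whole mouse uterus on gestational day 4. The genes were picked by name, and 49 of the 50 names matched a gene symbol in the deposited TPM table of 19991 genes, whereas Ackr1b matched none. All 49 had enough counts to be tested among 20950 genes. They fall into 12 endothelial surface and junction genes, 4 endothelial transcription factors, 6 receptors of angiogenic factors, 3 lymphatic genes, 4 leukocyte adhesion genes, 11 secreted ligands, 3 peptide receptor genes and 6 mural (pericyte) genes.

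The uteri came from knockout mice of genotype Prss29Cre/Cre;Pgrf/f (Pgr gecKO) and from wild-type control mice, with 2 libraries in each group. Cre was driven from Prss29, a serine protease gene of uterine glands, so that the floxed progesterone receptor gene Pgr is meant to be deleted in gland epithelium and not in vessels. The controls are labelled wild type only, and the effects of Pgr loss, of Cre and of the altered Prss29 locus cannot be told apart. The labels give neither strain nor age and do not state that each library is a separate animal, so the error behind each p-value is that between these libraries and may be partly technical. In a bulk sample, fewer cells of a type and less RNA per cell cannot be told apart.

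Endothelial cells line all vessels, are held together by VE-cadherin, PECAM1 and claudin-5, and respond to VEGF through the receptors KDR and FLT1 and to angiopoietins through TEK, the receptor also called TIE2. Lymphatic endothelium is specified by the transcription factor PROX1 and grows through FLT4, the receptor of VEGF-C and VEGF-D. In the mouse uterus vascular permeability rises at the implantation site around the time of embryo attachment, and progesterone and oestrogen act on the uterine vasculature.

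Total counts ranged from 29932153 in knockout replicate 2 to 35149834 in control replicate 1, and no 2 libraries were alike within sampling noise. Pgr had 4304 and 4102 counts in knockouts 1 and 2, against 4881 and 4865 in controls 1 and 2. Pgr is also transcribed outside the glands, and a count over the whole uterus is no test of its loss there. Prss29 had 0 and 0 counts in the knockouts, against 1524 and 190 in the controls. Levels of tissue markers differed between libraries of the same group. The 6 lymphatic endothelium markers summed to 112.9 and 682.9 TPM in knockouts 1 and 2, against 352.1 and 142.0 TPM in controls 1 and 2. Most of each sum was the chemokine gene Ccl21a, at 88.3 and 561.5 TPM in the knockouts, against 298.3 and 104.6 TPM in the controls. The 4 adipocyte markers summed to 0.356 and 24.2 TPM in the knockouts, against 0.778 and 5.06 TPM in the controls, with Adipoq and Cidec listed at 0 in knockout 1 and control 1. The 6 smooth muscle markers summed to 6522 and 9822 TPM in the knockouts, against 7955 and 2494 TPM in the controls. The 5 red blood cell markers summed to 172.6 and 504.0 TPM in the knockouts, against 464.2 and 138.2 TPM in the controls. All 8 endothelium markers were detected in every library, with sums of 937.1 and 579.0 TPM in the knockouts, against 708.4 and 810.4 TPM in the controls. These 8 are all members, and the lymphatic markers include the members Prox1 and Flt4, so these sums are not independent of the members' values.

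Promoter sequence is shown for 3 members. They are Pgf, the ligand gene with the largest difference between the groups, and the endothelial surface genes Emcn and Eng. Emcn and Eng are 2 of the 18 endothelial and angiogenic receptor members that were lowest in knockout 2. Each sequence is the 250 bases before the gene's start, 5′ to 3′ on the gene's strand, from RefSeq on GRCm38.p6, which is not the build the counts were made on (GRCm39). The Pgf window is chr12:85177314-85177563, minus strand, that of Emcn is chr3:137340828-137341077, plus strand, and that of Eng is chr2:32646345-32646594, plus strand. Capitals mark the core letters bound by ETS factors such as ERG and FLI1, searched as CGGAAG or AGGAAG on both strands.
Pgf: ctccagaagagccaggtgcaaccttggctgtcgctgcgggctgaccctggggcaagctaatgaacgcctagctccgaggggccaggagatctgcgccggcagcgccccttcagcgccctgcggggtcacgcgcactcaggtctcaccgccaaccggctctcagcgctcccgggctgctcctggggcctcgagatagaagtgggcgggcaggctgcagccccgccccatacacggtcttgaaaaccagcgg
Emcn: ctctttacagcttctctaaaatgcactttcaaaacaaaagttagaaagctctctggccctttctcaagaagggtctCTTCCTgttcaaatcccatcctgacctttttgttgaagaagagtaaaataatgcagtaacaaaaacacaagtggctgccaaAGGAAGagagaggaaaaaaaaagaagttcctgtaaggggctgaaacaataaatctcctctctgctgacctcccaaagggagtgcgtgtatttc
Eng: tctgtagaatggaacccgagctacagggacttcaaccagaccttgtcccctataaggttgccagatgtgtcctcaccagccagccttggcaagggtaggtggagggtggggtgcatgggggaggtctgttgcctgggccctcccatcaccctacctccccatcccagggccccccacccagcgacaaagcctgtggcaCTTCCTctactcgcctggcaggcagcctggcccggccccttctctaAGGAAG
Emcn and Eng each held 2 ETS matches in these bases and Pgf held 0 from the start shown, 1 of 2 starts that the table lists for Pgf. Other members lowest in knockout 2 varied in the bases before their first listed start, with 3 matches for Egfl7 and 0 for Kdr and Erg. Promoters of 32 of the 49 members were counted. Each was taken from the RefSeq table, from 250 bases before to 50 bases after the first start listed. The other members were left out, whether or not the table lists them, so member and table shares may rest on differently selected promoters. ETS letters were in 11 of the 32 member promoters (34.4%) and in 46.4% of 27025 promoters of the table. The SOX letters ACAAAG were in 4 of the 32 (12.5%) and in 18.7% of all, and the GATA letters AGATAA in 4 of the 32 (12.5%) and in 11.4% of all. The hypoxia response letters ACGTG were in 1 of the 32 (3.12%), that of Pdpn, and in 19.7% of all. These are matches of letters in short windows and say nothing about binding.

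Mean levels of the members ran from 302.3 TPM for Rgs5 to 2.01 TPM for Esm1. Levels are compared between genes in TPM, the deposited value per gene length. The pericyte gene Rgs5, a regulator of G-protein signalling, was the most abundant at 350.4 and 236.1 TPM in the knockouts, against 341.2 and 281.5 TPM in the controls. Next came Mcam, an adhesion molecule of endothelium and mural cells, with a mean of 173.7 TPM over the 4 libraries, and the VE-cadherin gene Cdh5 with 144.0 TPM. In all, 12 members averaged over 100 TPM and 4 under 5 TPM. Those 4 were Angpt1, Prox1, Sele and Esm1, with means of 3.26, 2.87, 2.20 and 2.01 TPM. Neighbours in this order, such as Cldn5, Sox18, Pecam1, Plvap, Aplnr and Eng at 117.2 to 106.0 TPM, differed by less than their spread over the libraries.

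**Figure D1:**
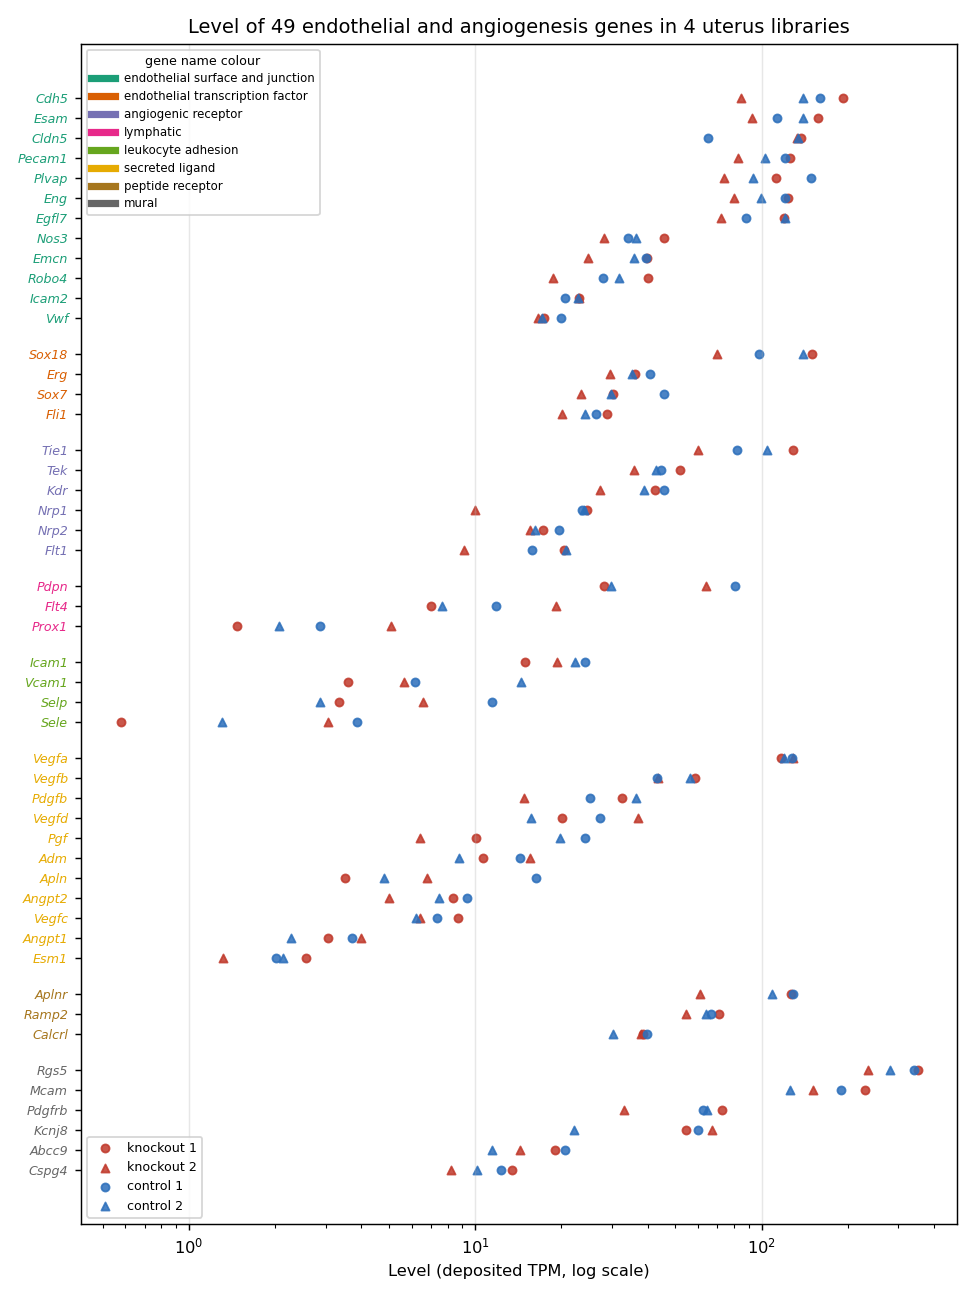
Deposited TPM (log axis) of the 49 members in the 4 libraries, grouped by role (colour of the gene name) and ordered by mean level within each role. Red points are the knockouts and blue points the controls, with circles for replicate 1 and triangles for replicate 2. The red triangles of knockout 2 lie leftmost for most endothelial genes and rightmost for Prox1 and Flt4.

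No member passed the test between knockout and control. In edgeR's quasi-likelihood test with Benjamini-Hochberg adjustment over all genes, 0 of 49 members had an adjusted p under 0.05, where 1 gene in all did (0.00477% of the genes tested). That gene, Gbp2b, is no member and is named after its value was seen. At an unadjusted p under 0.05 there was 1 member, Pgf, which was lower (2.04% of members), against 3.01% of all genes tested in either direction and 1.79% lower. DESeq2 called 1 member, again Pgf, where it called 0.392% of the genes with an adjusted p. The median log2 fold change of the members was −0.065, beside 0.0063 over all genes tested, with 19 members above 0 and 30 below. In 4 members both knockouts lay below both controls in CPM, and in 0 members above (8.16% of members either way). Among all genes tested, 25.3% had groups that did not overlap, 13.1% being lower in the knockouts.

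The precision of these comparisons differed between members. The 95% interval of the log2 fold change lay within −1 and 1, so that a doubling or a halving fell outside it, in 24 of the 49 members. These included 10 of the 12 endothelial surface and junction genes, Vegfa, Vegfb, Kdr, Tek, Tie1 and Rgs5. In the other 25, among them all 3 lymphatic and all 4 leukocyte adhesion genes, the interval reached a 2-fold change. A p that misses the threshold does not show that the groups were alike.

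**Figure D2:**
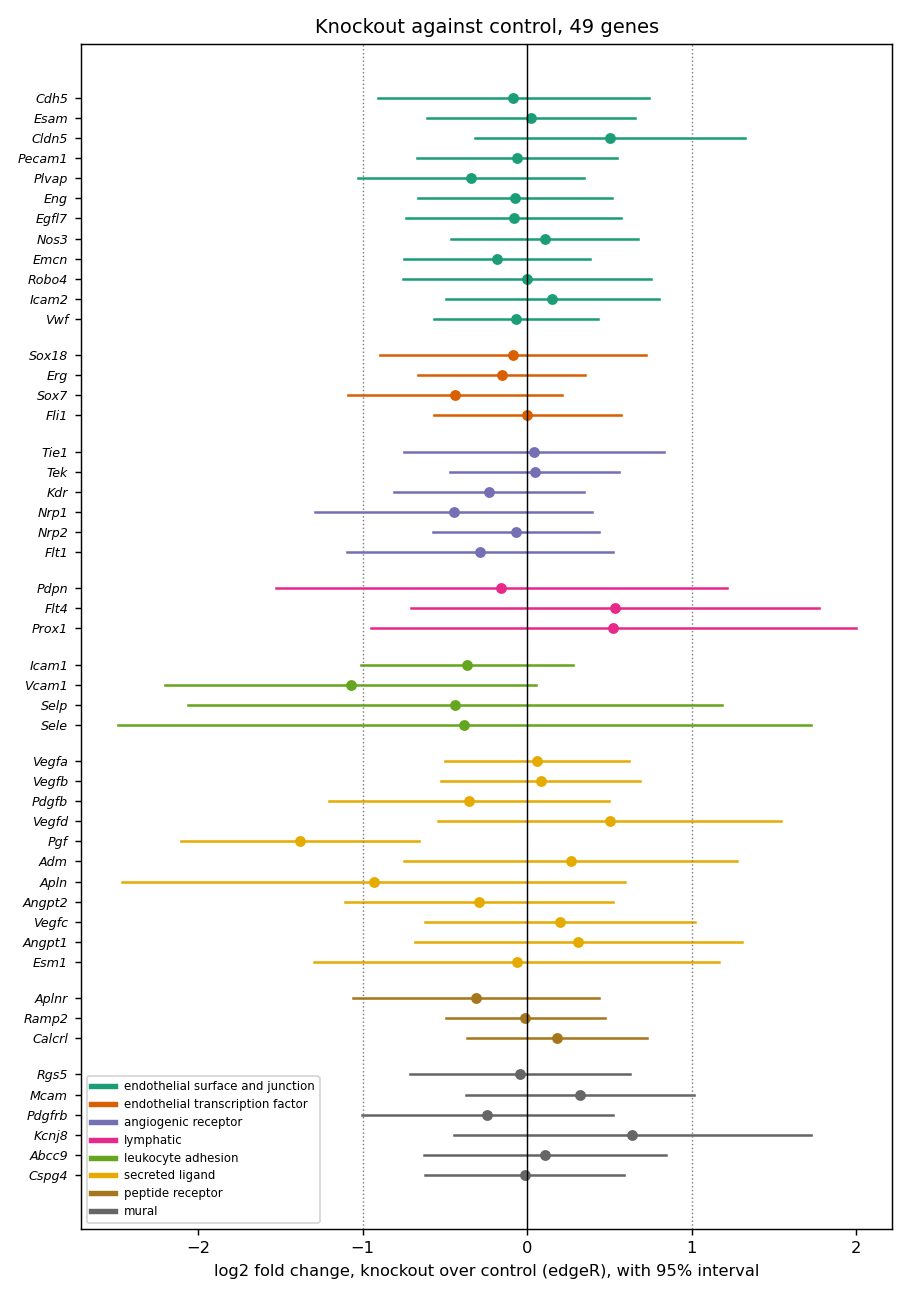
The log2 fold change of each member, knockout over control, from edgeR on counts (points) with its 95% interval (lines), where dotted lines mark a 2-fold change. The interval of Pgf, from −2.11 to −0.66, is the only one of the 49 that does not reach 0.

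No endothelial surface and junction gene passed the test, and the class as a whole was not tested. Values from here on are CPM scaled with TMM factors, which allow libraries to be compared, unless TPM is named. Cdh5 was at 245.2 and 124.3 CPM in knockouts 1 and 2, against 209.4 and 182.2 CPM in controls 1 and 2. The knockouts lay on either side of both controls, and the log2 fold change was −0.084 (SE 0.35, 95% interval −0.91 to 0.74). Esam, which encodes an adhesion molecule of endothelial junctions, was at 136.9 and 92.7 CPM in the knockouts, against 101.5 and 124.7 CPM in the controls. Cldn5, the tight junction claudin of endothelium, was at 58.8 and 65.6 CPM in the knockouts, against 28.8 and 59.0 CPM in the controls. Control 1 alone was low for Cldn5, and control 2 lay within the range of the knockouts. Its log2 fold change of 0.50 (SE 0.34, unadjusted p = 0.19 in edgeR) was 0.089 without control 1 and 1.11 without control 2. Plvap, which encodes the diaphragm protein of fenestrated endothelium, was at 67.3 and 51.2 CPM in the knockouts, against 92.4 and 58.0 CPM in the controls.

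Over the 12 surface and junction genes the log2 fold changes ran from −0.34 for Plvap to 0.50 for Cldn5, with a median of −0.063, and 5 were above 0. The adhesion receptor gene Pecam1 had a log2 fold change of −0.059 with a 95% interval of −0.67 to 0.55. Eng, the TGF-beta co-receptor endoglin, stood at −0.075 and the sialomucin gene Emcn at −0.18. The von Willebrand factor gene Vwf stood at −0.066, Egfl7, which encodes a secreted endothelial protein, at −0.082, and the guidance receptor gene Robo4 at 0.0016. Icam2, a constitutive adhesion molecule, stood at 0.15 and Nos3, the endothelial nitric oxide synthase, at 0.11. Each of these differences was smaller than its standard error.

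The 4 endothelial transcription factor genes had log2 fold changes from −0.44 to −0.00019, the last being Fli1, which was at 0.0029 with RLE factors. In 2 of them, Erg and Sox7, the groups did not overlap in CPM, though they did in TPM. Erg, an ETS factor that maintains endothelial identity, was at 37.7 and 35.9 CPM in the knockouts, against 44.0 and 38.0 CPM in the controls. The gap between the groups was smaller than that between the 2 controls, and the log2 fold change was −0.16 (SE 0.21). Sox7, a SoxF factor of vascular development, was at 30.1 and 27.0 CPM in the knockouts, against 46.9 and 30.6 CPM in the controls. Here control 1 stood apart from the other 3 libraries, and the log2 fold change of −0.44 (SE 0.27) was −0.085 without control 1. Sox18, a related SoxF factor of blood and lymphatic vessels, was at 73.4 and 39.5 CPM in the knockouts, against 49.6 and 70.2 CPM in the controls. Fli1, a second ETS factor, averaged 27.4 ± 4.17 CPM in knockouts and 27.4 ± 1.77 CPM in controls (SD, n = 2 each).

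Among the receptors of angiogenic factors, Tie1 had the highest level per gene length. Tie1, an orphan receptor that modulates TEK, averaged 93.7 TPM over the 4 libraries, Tek 43.8 TPM, Kdr 38.5 TPM and Flt1, the receptor of VEGF-A and PlGF that also acts as a decoy, 16.5 TPM. Tek and Kdr, neighbours in that order, overlapped over the libraries, and Kdr was the higher of them in control 1, at 45.6 against 44.6 TPM. In CPM, Tie1 was at 190.8 and 103.1 in the knockouts, against 126.0 and 159.9 in the controls. Tek was at 73.9 and 58.9 CPM in the knockouts, against 65.7 and 62.9 CPM in the controls, with a log2 fold change of 0.046 (95% interval −0.47 to 0.56). Kdr was at 116.3 and 85.9 CPM in the knockouts, against 128.8 and 108.9 CPM in the controls, with a log2 fold change of −0.23 (SE 0.24). In all 3 the groups overlapped. Nrp1, a co-receptor of VEGF-A and semaphorins, was at 72.8 and 34.0 CPM in the knockouts, against 72.3 and 73.4 CPM in the controls. Knockout 2 alone was low, and the log2 fold change of −0.45 was 0.0025 without it and −1.10 without knockout 1. For Flt1 the log2 fold change was −0.28 (SE 0.34), and for the lymphatic and venous co-receptor gene Nrp2 it was −0.068 (SE 0.21). The ratio of Flt1 to Kdr in TPM was 0.479 and 0.336 in the knockouts, against 0.345 and 0.538 in the controls.

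Placental growth factor, a VEGF family ligand that binds FLT1 and not KDR, had the largest difference of any member. Pgf (ENSMUSG00000004791) had 8.83 and 6.49 CPM in knockouts 1 and 2, against 22.0 and 17.9 CPM in controls 1 and 2. Both knockouts lay well below both controls, and the gap between the groups exceeded the spread within either. The means were 7.66 ± 1.65 CPM in knockouts and 19.97 ± 2.86 CPM in controls (SD, n = 2 each). Its log2 fold change was −1.38 (SE 0.30, 95% interval −2.11 to −0.66), that is 2.61-fold lower, with an unadjusted p of 0.0029 and an adjusted p of 0.84 in edgeR's quasi-likelihood test. DESeq2 gave an adjusted p of 0.029 with a log2 fold change of −1.38, so that the call rests on the test used. The adjusted p over the 9 alternatives ran from 0.029 to 0.9999. With 1 library left out at a time the log2 fold change stayed between −1.62 and −1.18. Pgf was also the only member with groups that did not overlap and a log2 fold change over 1 in size, which 4.03% of all genes tested had.

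Pgf was lower relative to other vascular genes as well as in CPM. Its TPM was 8.60% and 4.96% of that of Vegfa in the knockouts, against 19.0% and 16.6% in the controls. It was 8.01% and 7.77% of that of Pecam1 in the knockouts, against 20.2% and 19.4% in the controls. Relative to its receptor gene Flt1 the ratio in TPM was 0.493 and 0.699 in the knockouts, against 1.54 and 0.953 in the controls. These ratios share the Pgf values with the test above. The 5 macrophage markers, which did not pass either, were also lower, summing to 227.0 and 188.5 TPM in the knockouts, against 349.5 and 308.9 TPM in the controls, with none at 0. In CPM 4 of the 5 were lower in both knockouts than in both controls, against 13.1% of all genes tested, and 3 of the 5 were lower at an unadjusted p under 0.05 in edgeR, against 1.79% of all genes tested. The 2 most abundant of them, the complement gene C1qa and the lysosomal gene Cd68, had log2 fold changes of −0.61 (SE 0.21) and −0.76 (SE 0.27). The 4 stroma markers summed to 1791 and 1618 TPM in the knockouts, against 2575 and 1571 TPM in the controls. The part of either in the Pgf difference was not tested.

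**Figure D3:**
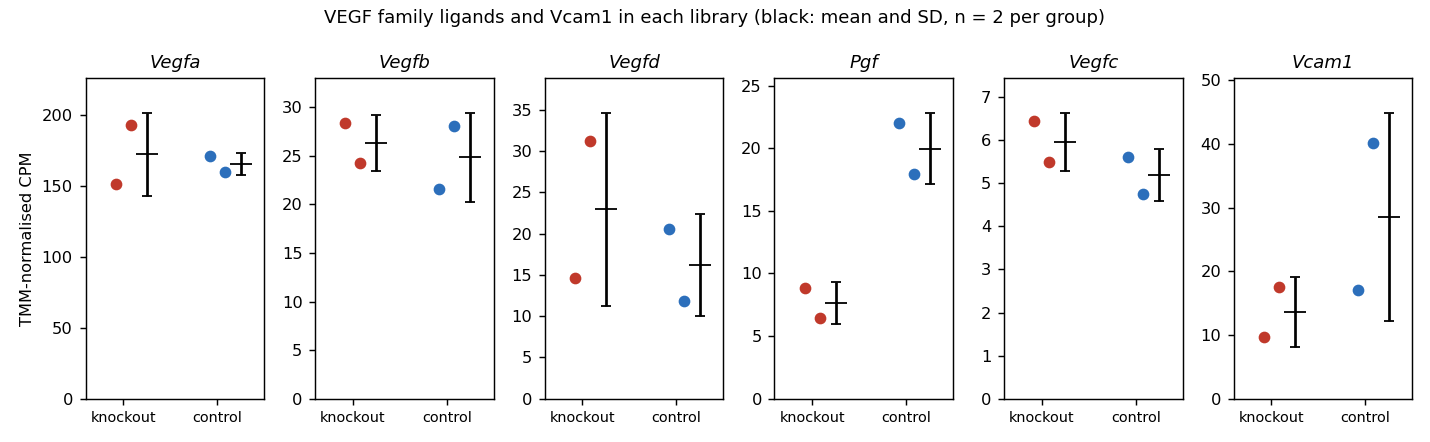
CPM of the 5 VEGF family ligand genes and of Vcam1 in each library, with knockouts in red left of controls in blue and the mean and SD of each group (n = 2) in black. The 2 knockout points of Pgf, at 8.83 and 6.49 CPM, lie below its control points at 22.0 and 17.9 CPM, whereas the groups overlap in the other genes.

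The other VEGF ligands did not differ detectably. Vegfa, the main driver of vessel growth and permeability, was at 151.5 and 192.9 CPM in the knockouts, against 170.9 and 159.7 CPM in the controls. Its log2 fold change was 0.059 with a 95% interval of −0.50 to 0.62, and both controls lay between the 2 knockouts. Vegfb, which also binds FLT1, was at 28.4 and 24.3 CPM in the knockouts, against 21.6 and 28.1 CPM in the controls. Of the FLT4 ligand genes, Vegfd averaged 22.9 ± 11.7 CPM in knockouts and 16.2 ± 6.21 CPM in controls, and Vegfc 5.96 ± 0.671 CPM in knockouts and 5.19 ± 0.604 CPM in controls (SD, n = 2 each). Per gene length the order of the family was Vegfa, Vegfb, Vegfd, Pgf and Vegfc, with means of 123.2, 50.3, 25.1, 15.1 and 7.17 TPM. Vegfd and Pgf, neighbours in that order, overlapped in level across the libraries, and in the controls the mean of Pgf was the higher, at 22.0 against 21.5 TPM. Pgf and Vegfc overlapped too, and in knockout 2 Pgf was at 6.40 and Vegfc at 6.42 TPM.

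None of the other secreted factors passed the test. Apln, the apelin peptide gene of sprouting endothelium, was at 3.36 and 7.49 CPM in the knockouts, against 16.0 and 4.70 CPM in the controls. Control 1 alone was high, and the log2 fold change of −0.93 (SE 0.64) was 0.22 without it. Pdgfb, the endothelial ligand that recruits pericytes, was at 41.1 and 21.6 CPM in the knockouts, against 32.6 and 47.4 CPM in the controls. For Angpt2, the context-dependent antagonist of TEK, the log2 fold change was −0.29 (SE 0.34), and for Angpt1, the TEK agonist, it was 0.31 (SE 0.42). The ratio of Angpt2 to Angpt1 in TPM was 2.72 and 1.25 in the knockouts, against 2.51 and 3.29 in the controls. Adm, which encodes the vasodilator adrenomedullin, stood at 0.26 (SE 0.42) and Esm1, a proteoglycan of tip cells with 27 to 54 counts per library, at −0.065 (SE 0.52). Over the 11 ligands the median was 0.059, with 6 above 0. The median was below 0 with any library but control 1 left out, at −0.033 without knockout 1, −0.047 without knockout 2 and −0.027 without control 2, and on log2(TPM + 1), at −0.0090.

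The receptor genes for apelin and adrenomedullin overlapped between the groups. Aplnr, the apelin receptor, was at 141.7 and 78.8 CPM in the knockouts, against 148.3 and 125.1 CPM in the controls, with knockout 2 the lowest. Ramp2, the subunit that makes the calcitonin receptor-like receptor bind adrenomedullin, was at 71.0 and 62.6 CPM in the knockouts, against 68.7 and 65.9 CPM in the controls. Its log2 fold change of −0.012 had the narrowest interval of the members, from −0.49 to 0.47. Calcrl, the receptor subunit itself, was at 56.9 and 64.6 CPM in the knockouts, against 60.8 and 46.3 CPM in the controls. The receptor pair was thus more abundant than its ligand, with means of 64.0 TPM for Ramp2, 36.7 TPM for Calcrl and 12.3 TPM for Adm.

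All 4 leukocyte adhesion genes had log2 fold changes below 0, with a median of −0.41, and none passed. The shared direction rested on single libraries: the median was 0.17 without control 1, where Selp stood at 0.90 and Sele at 0.62, and −0.036 without knockout 1, where both selectins were also above 0. Vcam1, the ligand of VLA-4 that is transcribed by activated endothelium and by stroma, was at 9.67 and 17.5 CPM in the knockouts, against 17.0 and 40.1 CPM in the controls. Knockout 2 and control 1 were nearly equal, and control 2 alone was high. The log2 fold change was −1.07 (SE 0.47, 95% interval −2.20 to 0.053, unadjusted p = 0.059 in edgeR), and it was −0.33 without control 2. Icam1, the ligand of beta2 integrins, was at 19.7 and 29.4 CPM in the knockouts, against 33.0 and 30.4 CPM in the controls. The groups did not overlap, but knockout 2 lay close to control 2, and the log2 fold change was −0.37 (SE 0.27). Selp, the P-selectin gene of endothelium and platelets, was at 4.47 and 10.1 CPM in the knockouts, against 15.8 and 3.93 CPM in the controls. Sele, the E-selectin gene of activated endothelium, had 17 and 88 counts in the knockouts, against 123 and 42 in the controls. For both selectins the order of the libraries crossed the groups. The platelet markers found, 4 of 5, summed to 15.2 and 22.0 TPM in the knockouts, against 32.4 and 22.8 TPM in the controls, and their part in the Selp values was not tested.

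The 3 lymphatic genes did not differ detectably between the groups but stood far apart within the knockouts, with a median of −1.63 for knockout 1 minus knockout 2 on the log2 scale, the largest in size of the 8 classes. Prox1 was at 3.75 and 14.9 CPM in knockouts 1 and 2, against 7.54 and 5.39 CPM in controls 1 and 2. Flt4 was at 17.4 and 55.0 CPM in the knockouts, against 30.4 and 19.6 CPM in the controls. The 2 knockouts were the lowest and the highest library for both genes, with knockout 2 higher than knockout 1 by 3.96-fold for Prox1 and 3.16-fold for Flt4. The log2 fold changes between the groups were 0.52 for Prox1 (SE 0.62) and 0.53 for Flt4 (SE 0.52), and without knockout 2 they were −0.78 and −0.52. Pdpn, which encodes podoplanin of lymphatic endothelium, mesothelium and some stromal cells, was at 15.5 and 40.6 CPM in the knockouts, against 45.7 and 16.9 CPM in the controls. For Pdpn control 1 was as high as knockout 2.

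Of 12 other lymphatic genes, 7 were highest in knockout 2 and 7 were lowest in knockout 1. The shares of all genes tested with these extremes were not computed. Not all 12 genes followed these libraries. Nr2f2, a venous and lymphatic transcription factor gene, and Ccbe1, which encodes a protein that promotes VEGF-C processing, were highest in knockout 1 and lowest in knockout 2, and 3 genes were highest in control 1. The hyaluronan receptor gene Lyve1 was at 10.5 and 55.4 CPM in the knockouts, against 22.0 and 18.6 CPM in the controls. Mmrn1, a multimerin of lymphatic endothelium, was at 6.53 and 77.4 CPM in the knockouts, against 23.4 and 11.4 CPM in the controls. The chemokine gene Ccl21a, whose counts may be shared with near-identical copies, was at 23.3 and 170.6 CPM in the knockouts, against 81.1 and 28.4 CPM in the controls. Each of these 3 was lowest in knockout 1 and highest in knockout 2, and of the 12 genes 0 passed in either direction. The 4 mesothelium markers summed to 82.6 and 113.2 TPM in the knockouts, against 114.4 and 84.5 TPM in the controls, with none at 0. Most of each sum was Wt1, at 72.8 and 71.1 TPM in the knockouts, against 67.9 and 60.0 TPM in the controls. Upk3b, the next most abundant, was at 6.06 and 25.9 TPM in the knockouts, against 27.6 and 12.3 TPM in the controls. The sums of the mesothelium markers and of the adipocyte markers given above were higher in knockout 2 than in knockout 1. The part of tissue around the uterus in these values was not tested.

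**Figure D4:**
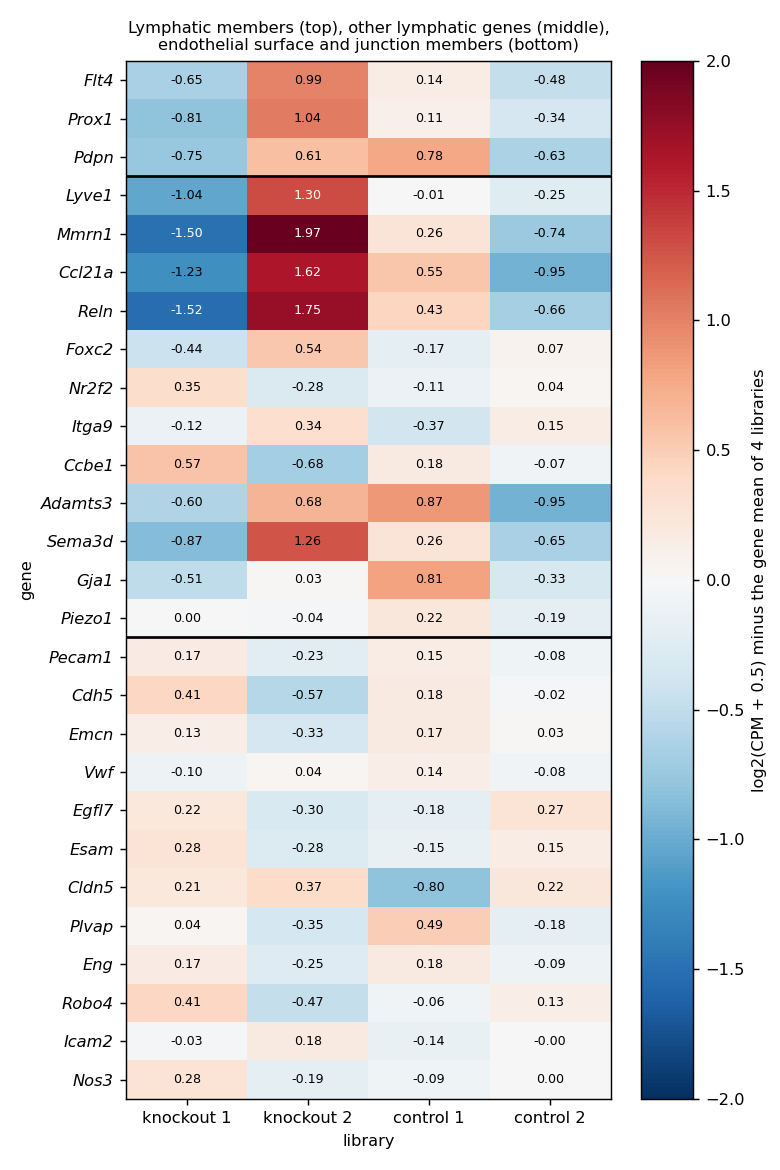
Each cell gives log2(CPM + 0.5) of a gene in a library minus the gene's mean over the 4 libraries, for the 3 lymphatic members (top), all 12 other lymphatic genes (middle) and the 12 endothelial surface and junction members (bottom). Prox1, Flt4 and 7 of the 12 other lymphatic genes are highest in knockout 2, whereas Nr2f2 and Ccbe1 are lowest there, as are all surface and junction members but Cldn5, Icam2 and Vwf.

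Most endothelial members ran the other way in the same library. Of the 22 endothelial surface, transcription factor and angiogenic receptor genes, 18 were lower in knockout 2 than in each of the other 3 libraries, which held for 31.6% of all genes tested. In the list of 27 other endothelial genes 10 were lowest in knockout 2, near the share of all genes tested, and 8 were highest there. Knockout 1 was higher than knockout 2 in 15 of the 27, against 51.5% of all genes tested. That list summed to 3005 and 2797 CPM in the knockouts, against 2657 and 2835 CPM in the controls. Its most abundant genes in TPM, Sox17 and Aqp1, are not restricted to endothelium. Sox17 was at 449.3 and 318.4 CPM in the knockouts, against 326.0 and 503.9 CPM in the controls. Aqp1 was at 176.1 and 403.6 CPM in the knockouts, against 197.1 and 84.7 CPM in the controls. The 16 surface, junction and transcription factor members summed to 1481 and 1074 CPM in knockouts 1 and 2, against 1355 and 1307 CPM in controls 1 and 2. Prox1 in TPM was 1.18% and 6.16% of Pecam1 in the knockouts, against 2.39% and 2.01% in the controls. Without knockout 1 the median log2 fold change of the surface and junction genes was −0.29, and without knockout 2 it was 0.14. It was 0.053 without control 1 and −0.036 without control 2, so that its sign changed without knockout 2 and without control 1.

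Mural genes did not differ detectably, and the members of the class differed in which libraries were high. Rgs5 was at 482.0 and 374.8 CPM in the knockouts, against 484.6 and 399.0 CPM in the controls, with a log2 fold change of −0.044 (95% interval −0.71 to 0.62). Mcam was at 232.2 and 177.5 CPM in the knockouts, against 197.4 and 130.8 CPM in the controls. Pdgfrb, the receptor through which PDGF-B recruits pericytes, was at 120.2 and 63.1 CPM in the knockouts, against 106.5 and 110.3 CPM in the controls. Knockout 2 alone was low for Pdgfrb and was also the lowest for its ligand gene Pdgfb, and the ratio of Pdgfb to Pdgfrb in TPM was 0.450 in both knockouts, against 0.403 and 0.565 in the controls. Kcnj8, which encodes the potassium channel pore subunit of pericytes and smooth muscle, was at 42.0 and 59.8 CPM in the knockouts, against 47.7 and 17.6 CPM in the controls. Control 2 alone was low, the library in which the smooth muscle markers were also lowest, and the part of muscle content was not tested. The log2 fold change of Kcnj8 was 0.64 (SE 0.46), and 0.092 without control 2. Abcc9, the channel's sulfonylurea receptor subunit, stood at 0.11 (SE 0.31) and Cspg4, the NG2 proteoglycan of pericytes, at −0.015 (SE 0.25).

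Differences between libraries of the same group were large for some members. Knockouts 1 and 2 differed by more than 1 on the log2 scale in 8 of the 49 members (16.3%), against 8.08% of all genes tested, and controls 1 and 2 in 7 members (14.3%), against 6.5% of all genes tested. The 8 were Prox1, Flt4, Pdpn, Selp, Sele, Vegfd, Apln and Nrp1, and all but Nrp1 were higher in knockout 2. The 7 were Selp, Sele, Apln, Pdpn, Kcnj8, Vcam1 and Cldn5, of which Vcam1 and Cldn5 were higher in control 2. Knockout 1 was higher than knockout 2 in 31 members (63.3%), against 51.5% of all genes tested, and control 1 was higher than control 2 in 34 (69.4%), against 50% of all genes tested. In 14 members (28.6%) knockout 1 and control 2 were both lower than knockout 2 and control 1, against 26.6% of all genes tested.

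**Figure D5:**
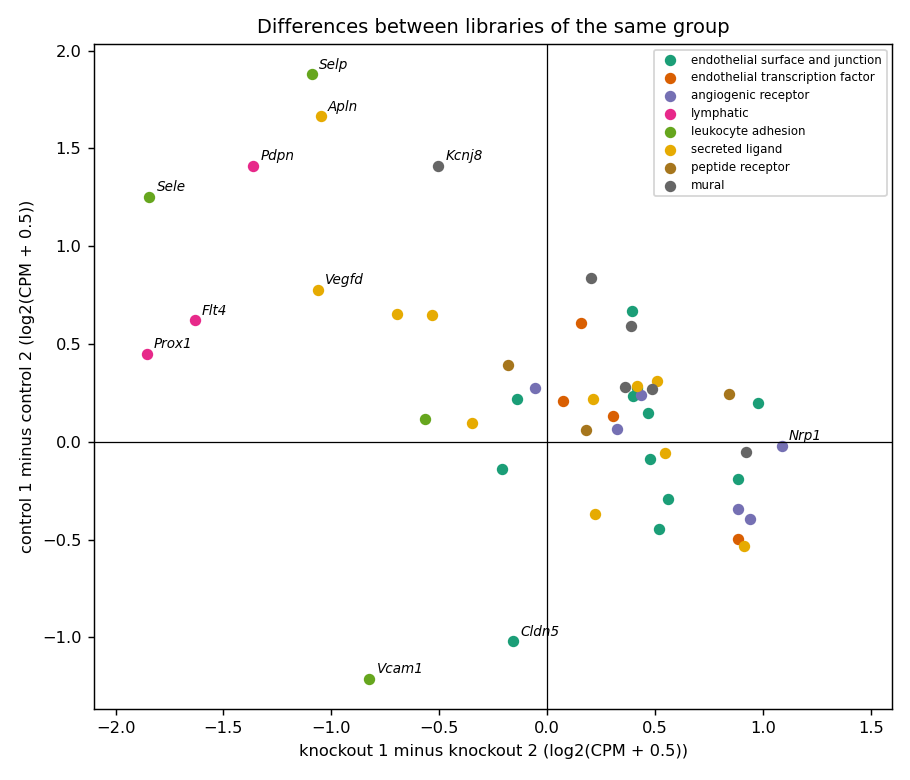
Difference between the libraries of each group for the 49 members, as log2(CPM + 0.5) of replicate 1 minus replicate 2, with knockouts on the x axis and controls on the y axis. Members past 1 in size on either axis are named. Lymphatic and selectin genes lie at the upper left, and most endothelial and receptor genes lie to the right of 0.

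Other genes of the same pathways, from lists drawn up by function, gave no call in either direction. None of 15 hypoxia response genes passed, with a median log2 fold change of 0.033. Ldha, the lactate dehydrogenase gene, and Pgk1, a glycolytic kinase gene, the most abundant of them, had log2 fold changes of 0.052 and −0.032. Of 18 arterial, venous and Notch genes none passed, and the median was 0.014. Ephb4, the venous receptor of ephrin-B2, and the venous transcription factor gene Nr2f2 had log2 fold changes of 0.044 and 0.10. Among 27 other endothelial genes 0 passed, with a median of 0.056. In that list Sox17, a SoxF factor that uterine epithelium also transcribes, had a log2 fold change of −0.11, and the water channel gene Aqp1, which is not restricted to endothelium, one of 1.04 (SE 0.51). Of 15 other mural genes 0 passed, and the contractile genes Acta2 and Tagln had log2 fold changes of 0.61 and 0.99 with 95% intervals that included 0. Of 31 other ligand and inhibitor genes tested 0 passed, with a median of 0.047. The most abundant of these, the binding protein genes Igfbp7 and Igfbp3, had log2 fold changes of −0.11 and −0.51.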

How the data were processed

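RNA of whole uterus was sequenced as paired ends of 150 bases, per the series' design text. The submitters' processing notes name Trimmomatic, STAR, featureCounts and the build GRCm39. The sources used here give no versions, annotation or strand setting, so overlapping genes and near-identical copies are uncertain. The authors deposited raw counts for 57186 genes and TPM for 19991 genes, scaled over the genes of that table, with gene lengths. Each column was assigned by the library name that the sample's description gives.

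Counts were fitted with the quasi-likelihood test of edgeR 4.0.16 in R 4.3.3, after filterByExpr (minimum count 10, total 15) and TMM scaling, with 1 term for genotype, over 20950 genes. P-values were adjusted by Benjamini-Hochberg over all genes, with a threshold of 0.05. Fold changes are knockout over control, and 95% intervals are per gene. The biological coefficient of variation was 0.309. The pipeline was tested on simulated data. CPM values were computed from the counts, and a floor of 3 counts equals 0.0855 to 0.107 CPM per library. Alternatives were RLE factors, DESeq2 1.42.0, no low-count filter, each library left out, a replicate block, and limma 3.58.1 on log2(TPM + 1). All members are named, with values in every library for the 3 most abundant and the 2 of smallest p in each class. Of the pathway lists the 2 most abundant members are named. Marker lists other than those of pericytes and epithelium are given as sums, some with their most abundant members named. Cidec, Lyve1, Mmrn1, Ccbe1 and Gbp2b were named after their values were seen. The members and lists were chosen with earlier results of these data known.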

Additional observations from a re-analysis of the deposited data

How the results depend on the processing

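Of the 49 members, 12 kept 1 direction in all 9 alternatives (Angpt2, Cldn5, Erg, Icam1, Icam2, Kcnj8, Kdr, Mcam, Pgf, Sox7, Vcam1, Vegfc). The number of members called was 0 in each alternative except DESeq2, which called 1, Pgf. The number of genes called over the whole table was 1 in edgeR with TMM or RLE factors, 90 with DESeq2, 54 with no low-count filter, 3 with limma on log2(TPM + 1) and 32 with the replicate block. Leaving out 1 library gave 16 to 49 genes and 0 to 0 members (49 genes without knockout 1, 16 without knockout 2, 32 without control 1 and 41 without control 2). The titles number the libraries 1 and 2 in each group but do not say that a number marks a shared origin, and the deviations of same-numbered libraries correlated at −0.48 across genes. With the replicate block crossed, an alternative chosen after seeing the data, 37 genes and 0 members were called.

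With 1 library left out, class medians ran over −0.29 to 0.14 for endothelial surface and junction genes, −0.36 to 0.017 for endothelial transcription factor genes, −0.47 to 0.060 for angiogenic receptor genes, −0.78 to 1.14 for lymphatic genes, −1.35 to 0.17 for leukocyte adhesion genes, −0.047 to 0.12 for secreted ligand genes, −0.10 to 0.080 for peptide receptor genes, −0.16 to 0.37 for mural genes. The log2 fold changes of members that changed sign then ran over Vwf −0.17 to 0.061, Esam −0.29 to 0.28, Robo4 −0.51 to 0.38, Nos3 −0.15 to 0.33, Tek −0.13 to 0.20, Tie1 −0.47 to 0.42, Pdpn −1.01 to 0.75, Selp −1.14 to 0.90, Sele −2.19 to 0.62, Vegfb −0.080 to 0.28, Pecam1 −0.27 to 0.13, Cdh5 −0.65 to 0.33, Emcn −0.44 to 0.034, Egfl7 −0.37 to 0.16, Eng −0.30 to 0.12, Fli1 −0.16 to 0.15, Sox18 −0.60 to 0.30, Flt1 −0.83 to 0.12, Nrp1 −1.10 to 0.0025, Flt4 −0.52 to 1.14, Prox1 −0.78 to 1.20, Vegfa −0.12 to 0.22, Vegfd −0.14 to 0.97, Angpt1 −0.0044 to 0.73, Adm −0.15 to 0.68, Pdgfb −0.89 to 0.042, Esm1 −0.50 to 0.27, Aplnr −0.79 to 0.054, Ramp2 −0.10 to 0.080, Pdgfrb −0.78 to 0.15, Rgs5 −0.24 to 0.13, Cspg4 −0.28 to 0.21, Plvap −0.64 to 0.044, Nrp2 −0.20 to 0.092, Apln −1.62 to 0.22, Calcrl −0.0032 to 0.41, Abcc9 −0.25 to 0.61. Where a group was left with 1 library, that library was assumed to vary like the others. Sign changes in the other alternatives were all close to 0. Fli1 stood at 0.0029 with RLE factors and 0.0045 with DESeq2, and Robo4 at −0.0015 with no low-count filter. With the replicate block Robo4 stood at −0.063 and Tie1 at −0.017. On log2(TPM + 1) Esam stood at −0.056, Robo4 at −0.11, Tek at −0.021, Tie1 at −0.074 and Vegfa at −0.0090. The cause of these changes was not tested.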
